A study of Mus musculus with 24 samples.

Results

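Type I interferon-stimulated genes are genes whose transcription rises when a cell senses interferon alpha or beta. The 39 members described here were taken as a list of gene symbols, and a member is every probe whose gene name in the scanner files equals a listed symbol. All 39 of 39 had a probe, among 21597 symbols on the array, and all 39 passed the filter on dim probes that left 17353 symbols for testing. Of the members, 33 were well above background in all 24 channels, while the other 6 (Ifit1, Oas1g, Oas3, Mx1, Ifi205 and Ifi44) passed through the groups where they were bright. A count of members that changed therefore includes 6 genes that had to be bright somewhere to be counted.

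Interferon alpha and beta bind a shared receptor, whose kinases activate Stat2, which works with Irf9 in ISGF3, a complex that binds the interferon-stimulated response element near its target genes. The products of those genes sense foreign nucleic acid, block translation, edit or degrade RNA, hold viruses at membranes and mark proteins with Isg15. In macrophages, TLR4 signals through the adaptors Ticam2 and Ticam1 to Irf3, which switches on interferon beta and also some interferon-stimulated genes directly, so that the set responds to bacterial lipid as well as to virus.

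The study profiled macrophages treated with Kdo2 lipid A (KLA), a part of bacterial lipopolysaccharide and an agonist of TLR4, and these arrays give its messenger RNA levels. C57BL/6 mice gave 3 cell types, and their age is not given. Thioglycollate-elicited peritoneal macrophages (EPM) were lavaged 3 days after thioglycollate and kept as the cells that adhered overnight, bone marrow-derived macrophages (BMDM) were grown for 6 to 8 days with L-cell conditioned medium as the source of M-CSF, and resting splenic B cells were the CD43-negative cells left after magnetic depletion of cells bearing CD43 or CD11b. Each cell type was measured as an early control, after Kdo2 for 1 h, after DMSO for 12 h and after Kdo2 for 12 h. The early control was untreated in EPM and in B cells and was DMSO for 1 h in BMDM, so the vehicle differs between cell types at that time, and the vehicle of KLA is not stated in the labels.

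Each of 12 two-colour Agilent arrays carried 1 condition, with a biological replicate in Cy5 and another in Cy3, which gives 24 channels in 12 groups of n = 2. The study's methods speak of triplicates, and the deposited arrays hold 2 per group. Every value below is a normalised log2 intensity, Cy5 first and Cy3 second. A change is the KLA mean minus the control mean, so that 1 log2 unit is 2-fold. The control is the early control for KLA at 1 h and 12 h DMSO for KLA at 12 h. In EPM and B cells the early control has no stated time, so only BMDM has a control matched at 1 h. A change is called higher or lower where limma, fitted to all genes in all 24 channels, gave a Benjamini-Hochberg adjusted p under 0.05, and its SE rests on the spread between the channels of one array. Because each condition lies on a single array, array and condition cannot be told apart, and each cell type lies on a slide of its own, so the same holds for slide and cell type. With array means as the samples and the 2 control arrays of a cell type as replicates, the members higher fell to 4 at 1 h and 36 at 12 h in EPM (all genes 0.841% and 5.62%), and to 1 and 29 in BMDM (all genes 0.547% and 9.27%), beside main counts of 13, 39, 15 and 39.

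The B cell labels need a statement before any result. The authors' own value table was set against the scanner channels of the same slide: 20 of 24 columns lay closest to a channel of their own group (Pearson r across genes of at least 0.96, genes not being independent replicates), while the 4 columns of B cells with KLA for 1 h and with DMSO for 12 h each lay closest to a channel of the other of these conditions (r at least 0.98, against at most -0.74 for the channel of the same name). Either the scanner files or the value table carry these 2 labels exchanged, and the files do not say which. B cell counts are given with the labels of the scanner files and again with the 2 labels exchanged, and other B cell values keep the labels of the scanner files unless the exchange is named. These arrays enter the macrophage results through the normalisation across arrays, the choice and filtering of probes and the shared estimate of spread, which are the same under either labelling.

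Signal over background was similar across cell types, with a median of 61.3% of probes well above background in EPM channels (range 60.0 to 65.0%), 60.1% in BMDM (58.2 to 61.3%) and 59.0% in B cells (57.5 to 61.5%), and 0 spots were saturated. Markers fitted the labelled cell types: all 9 macrophage markers were well above background in every EPM and BMDM group, with a mean log2 level of 14.36 in untreated EPM, 14.77 in 1 h DMSO BMDM and 7.18 in untreated B cells. All 8 B cell markers were well above background in every B cell group (mean 13.42 untreated), against means of 8.13 in EPM and 8.36 in BMDM, where Blnk, which macrophages also express, was brightest. In BMDM the 7 neutrophil markers had a mean of 9.14, led by S100a9 at 13.50, against 6.96 in untreated EPM and 6.23 in untreated B cells. The other lists had low means in untreated EPM, 1 h DMSO BMDM and untreated B cells in turn: T cells 6.71, 6.82 and 7.21, NK cells 6.18, 6.02 and 6.24, eosinophils and mast cells 6.13, 6.51 and 6.33, plasmacytoid dendritic cells 6.70, 6.90 and 7.41. Single genes of these lists were brighter. In untreated B cells Lck (T cells) stood at 10.11 and Pacsin1 (plasmacytoid dendritic cells) at 10.25, and in 1 h DMSO BMDM Cox6a2 of the latter list stood at 9.17. Erythroid markers were at 6.36, 6.37 and 9.62, with Hbb-b1 at 12.93 in untreated B cells.

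Before KLA, the members were expressed at a lower level in EPM than in BMDM. Their median log2 level was 9.85 in untreated EPM, 10.96 in 1 h DMSO BMDM and 8.73 in untreated B cells, where the medians of all genes tested were 8.24, 8.23 and 7.98. Between the early controls, 36 members were lower and 2 higher in EPM than in BMDM, where 29.3% of all genes were lower and 28.5% higher. The median difference was -1.15 over the members and -0.01 over all genes. Among the wide gaps were those of Ifit3 (-2.97, SE 0.10, limma adjusted p 2.12e-14) and Ifit2 (-2.29), and Ifi44 (-3.15) was well above background in 1 of the 2 channels of untreated EPM, so the size of its gap is uncertain. Higher in EPM were Ifi205 (0.75, adjusted p 2.17e-06) and Trim25 (0.20, adjusted p 0.0252), and Oasl1 (0.15, adjusted p 0.322) did not pass. With array means as samples 23 members differed in place of 38 (all genes 19.6%), and Trim25 turned to -0.11. Vehicle, slide and cell type are not separable in this comparison and cannot be told apart.

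That gap was narrower after 12 h of KLA. As differences of group means with no test, EPM minus BMDM had a median of -1.15 in the early controls and -1.50 in the 12 h controls, and of -1.08 after 1 h and -0.23 after 12 h of KLA. After 12 h of KLA the members' median level was 13.62 in EPM and 14.00 in BMDM, and 9 of 39 members stood higher in EPM, from -1.44 for Ifi44 to 0.48 for Oasl2.

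**Figure D1:**
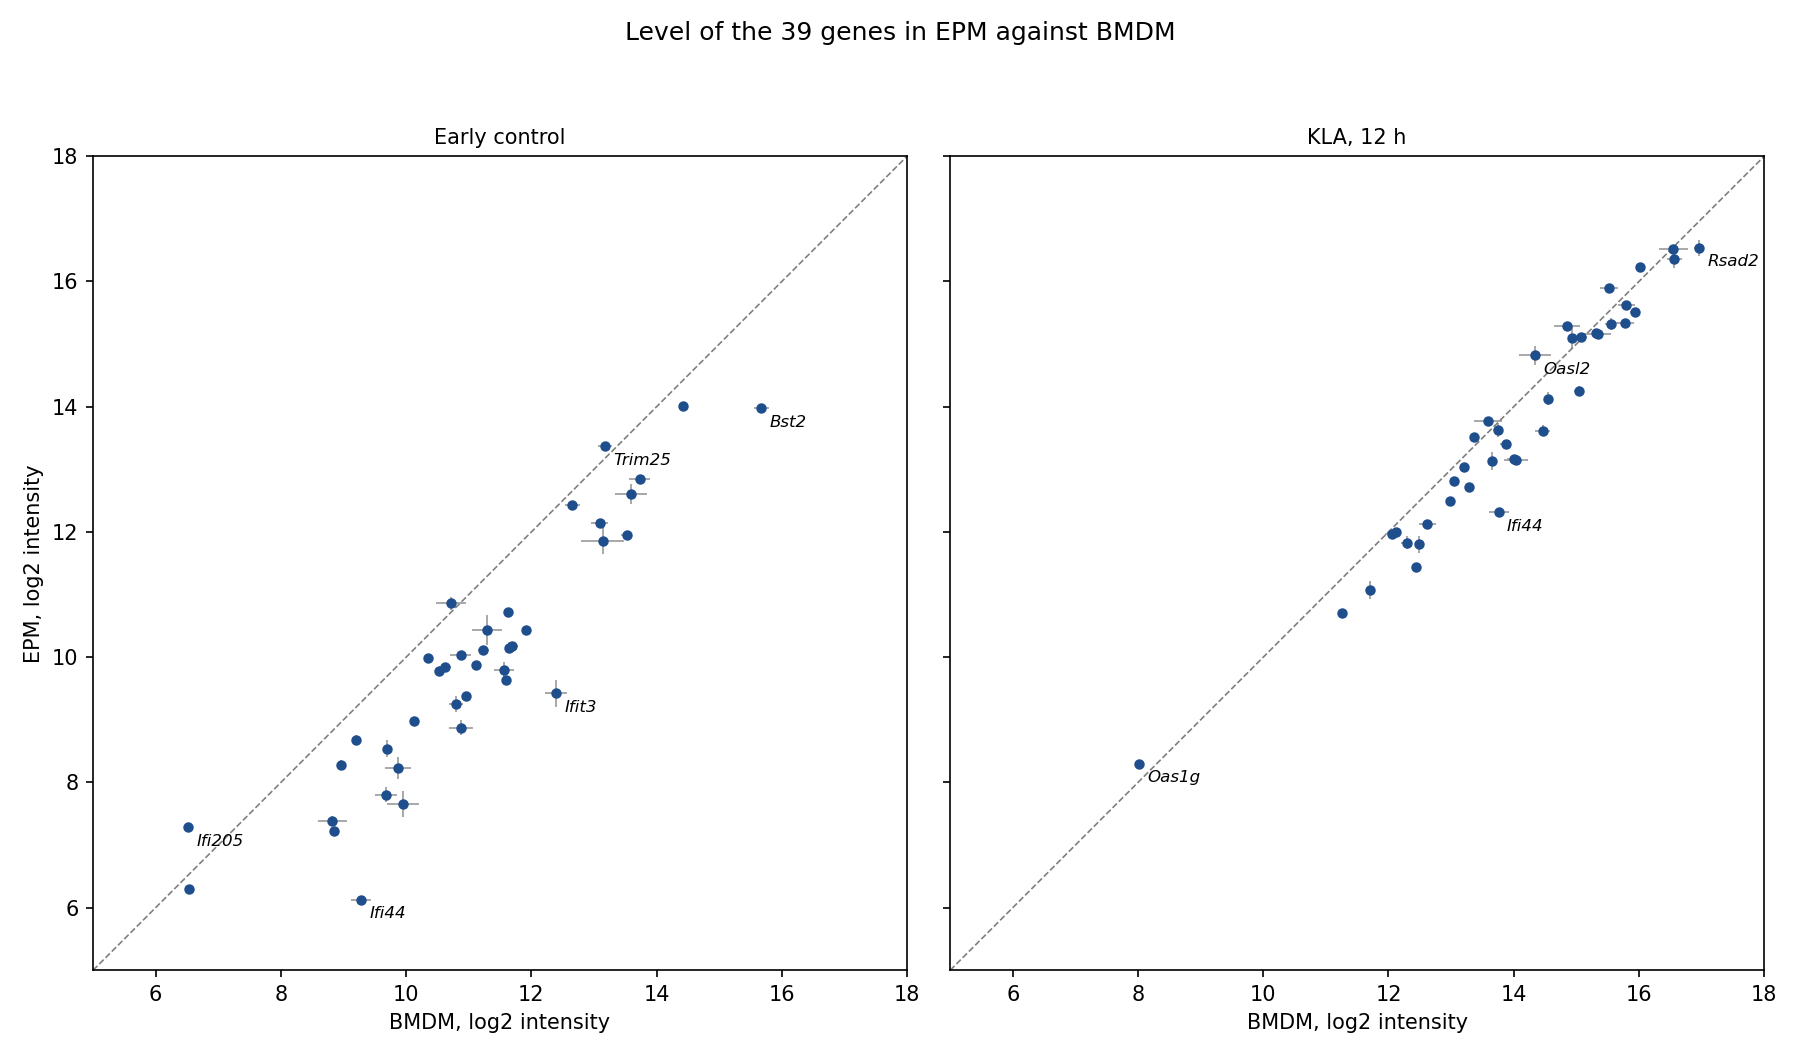
Mean log2 intensity of each of the 39 genes in EPM (vertical axis) against BMDM (horizontal axis), in the early controls on the left and after 12 h of KLA on the right, with bars for the SD of the 2 channels and a dashed line of equal level. In the early controls 36 of 39 points lie below the line with a median of -1.15, and after 12 h of KLA 30 do with a median of -0.23.

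After 1 h of KLA in EPM, 13 of 39 members rose, 6 fell and 20 did not pass the threshold, where 9.39% of all genes tested rose and 19.7% fell. The 13 that rose were the 3 IFIT genes, Oasl1, Mx2, Isg15, Ifih1, Rsad2, the 3 p200 genes and both PARP genes, and they were led by Ifit1 (4.27, 19.2-fold), Isg15 (3.86, 14.5-fold) and Ifi205 (3.01, 8.07-fold). The 6 that fell were Oas1b, Stat2, Ifitm3, Tor3a, Trim21 and Pml, the furthest being Tor3a at -0.45 and Pml at -0.43. The members' median change was 0.11 and that of all genes -0.05, and 7 members rose over 4-fold, 17.9% of them, where 0.588% of all genes did. 6 of the 13 (Ifit1, Oasl1, Mx2, Rsad2, Isg15 and Ifih1) are in the study's list of immediate and early genes, which was chosen on these EPM arrays and is no independent evidence of their direction. With the dye as a replicate block 15 members rose and 12 fell in place of 13 and 6 (all genes 12.8% and 27.8%), with Ddx58 and Zbp1 added to those that rose and Oas1a, Oas2, Oas3, Eif2ak2, Bst2 and Daxx to those that fell, and with array means 0 fell. Without the Cy5 channel of 1 h KLA, Stat2 no longer passed (-0.34, adjusted p 0.0594), Ifitm3 lost its call without any 1 of the 4 channels (-0.24 to -0.30 beside -0.27, adjusted p 0.0604 to 0.132), and Oas2 gained one without the Cy3 channel of the untreated cells (-0.30).

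In BMDM at 1 h, 15 members rose, 5 fell and 19 did not pass, where 11.0% of all genes rose and 17.6% fell. The members shared with EPM numbered 12: all those that rose in EPM except Ifi204. Mx1 (0.76), Ifi44 (0.91) and Isg20 (0.29) passed in BMDM and not in EPM. The largest changes were those of Ifit1 (3.82, 14.1-fold), Rsad2 (3.52, 11.4-fold) and Mx2 (3.38, 10.4-fold), and the members' median was 0.13 against -0.03 over all genes. Oas1a, Oas1b, Oas2, Eif2ak2 and Tor3a fell, by 0.48 at most on the log2 scale. This count of 5 moved with single channels: it was 2 without the Cy5 channel of 1 h DMSO and 3 without either channel of 1 h KLA. Oas1a then stood at -0.27 or -0.39 without the DMSO Cy5 or the KLA Cy3 channel, Tor3a at -0.27 or -0.33 without the same, Oas1b at -0.14 without the KLA Cy5 or the DMSO Cy3 channel, and Oas2 at -0.14 without DMSO Cy5, -0.26 without KLA Cy5 and -0.25 without KLA Cy3, each short of the threshold. Stat2 (-0.42, adjusted p 0.00904) fell without the KLA Cy3 channel, and Ifi204 rose without that channel (0.33) or the DMSO Cy5 channel (0.36). The authors' own values gave 17 higher and 1 lower (all genes 2004 and 1936, beside 1902 and 3053 in the main fit). With the dye as a replicate block 17 rose and 7 fell (all genes 14.5% and 25.2%), as Zbp1 and Ifi204 then passed upward and Stat2 and Pml downward.

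By 12 h the whole set had risen in both macrophages. In EPM 39 of 39 members rose and 0 fell, where 19.6% of all genes rose and 34.3% fell, and limma gave 0 members lower at an unadjusted p under 0.05 as well. The members' median change was 3.71, 13.1-fold, against -0.06 over all genes, and 3.71 with the members that were not well above background in the control taken at their bounds. Over 4-fold higher were 36 members, 92.3%, where 2.08% of all genes were, and 17 were over 16-fold higher, where 95 of all genes were. Ifit3 (8.84), Isg15 (7.69) and Ifit1 (7.46) changed most, and Sp100 (1.90) and Trim25 (1.06) least by their brightest probes. Among the members are Oas1a, Oas1g, Oas3, Oasl2, Mx1, Isg20, Usp18, Eif2ak2, Adar, Ifi35, Ifi47, Bst2, Ifitm3 and Daxx of the study's list of late genes, which was also chosen on these EPM arrays.

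In BMDM at 12 h, 39 members rose and 0 fell, where 28.6% of all genes rose and 36.3% fell, and limma again gave 0 lower at an unadjusted p under 0.05. The median change was 2.70, 6.5-fold, against -0.02 over all genes. Over 4-fold higher were 26 members, where 2.09% of all genes were, and over 16-fold 13, where 83 of all genes were. Ifi205 (7.01), Isg20 (6.62) and Rsad2 (5.93) changed most, and Bst2 (1.15) and Trim25 (0.76) least by their brightest probes. The members that had already risen at 1 h had a median 12 h change of 6.57 in EPM and 4.91 in BMDM, and the others 3.39 and 2.35. The mean of the neutrophil markers in control and KLA was 9.14 and 9.61 at 1 h and 8.93 and 9.45 at 12 h in BMDM, and 6.96 and 7.33, then 6.86 and 6.97 in EPM, and its part in the members' values was not tested.

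**Figure D2:**
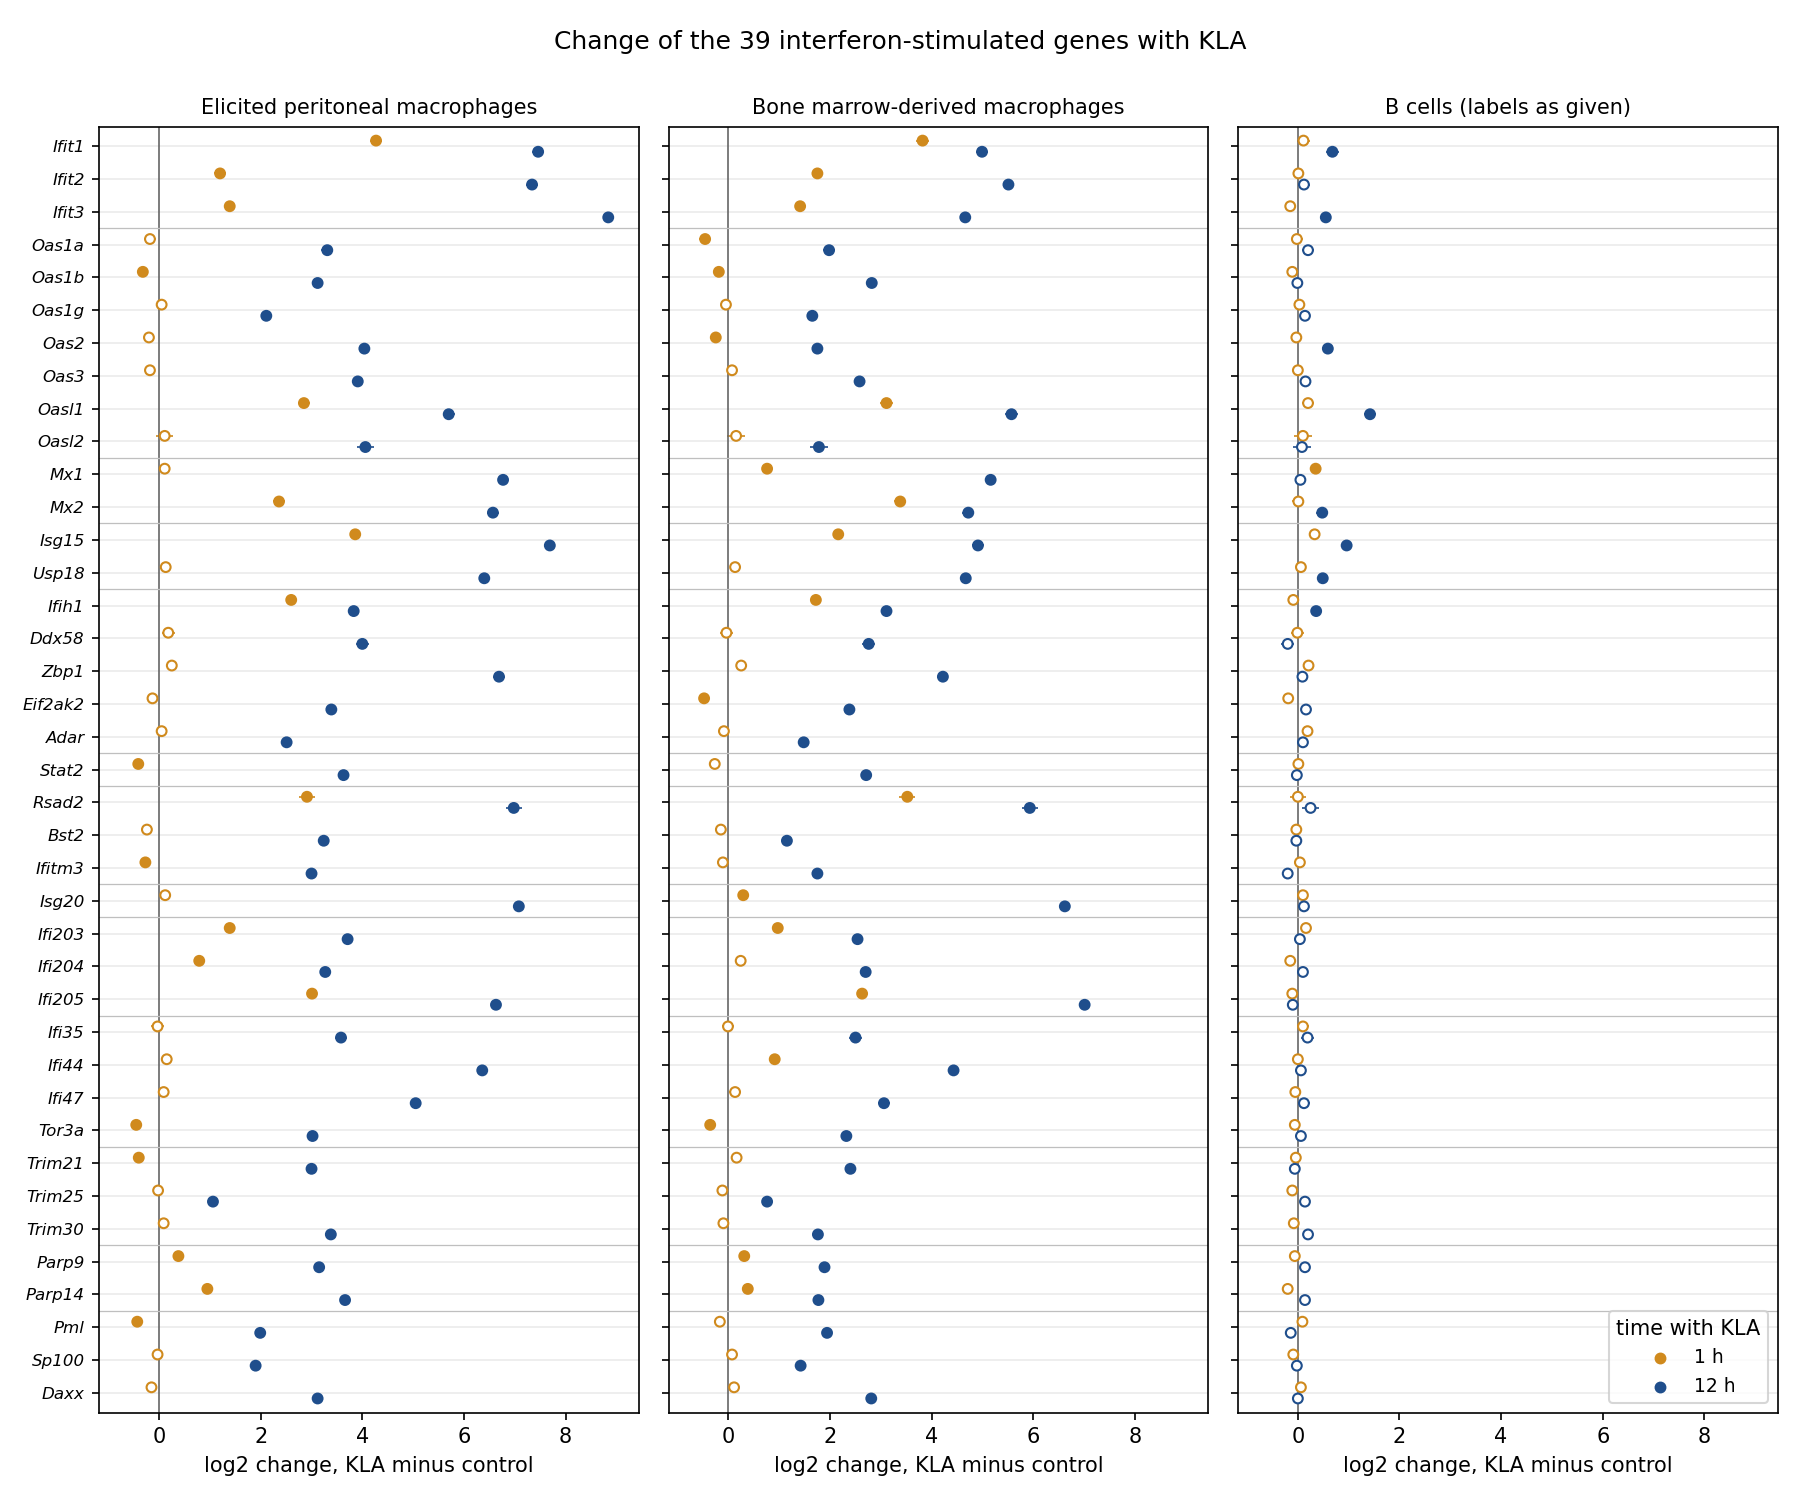
Log2 change of each of the 39 genes with KLA in 3 cell types, at 1 h (orange) and 12 h (blue). The control is the early control at 1 h and 12 h DMSO at 12 h. Bars are the SE, and filled points mark a limma adjusted p under 0.05. Thin lines part the groups by role. In EPM and BMDM every 12 h point is filled and right of 0, from 1.06 to 8.84 in EPM and from 0.76 to 7.01 in BMDM, while in B cells, with the labels of the scanner files, the furthest is Oasl1 at 1.42. With the exchange, which is not drawn, it would be Ifi204 at 2.04.

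For single genes below, both controls means the 2 channels of the control group used in that comparison: the early control for 1 h and 12 h DMSO for 12 h. The sensors and signal carriers come first, since they detect what the effectors act on. Ifih1 encodes MDA5, a cytosolic sensor of long double-stranded RNA. Ifih1 in EPM read 9.86 and 9.90 untreated, 12.52 and 12.45 after 1 h of KLA, 9.20 and 9.40 after 12 h of DMSO and 13.03 and 13.23 after 12 h of KLA. In BMDM the Ifih1 values were 11.14 and 11.07, 12.82 and 12.82, 10.58 and 10.51 and 13.65 and 13.66 for 1 h DMSO, 1 h KLA, 12 h DMSO and 12 h KLA. Ifih1 at 12 h of KLA lay above both controls in both macrophages, and the 1 h KLA values lay above both controls in both. Ifih1 rose 14.2-fold in EPM and 8.62-fold in BMDM at 12 h (log2 3.83 and 3.11, SE 0.09, adjusted p 2.57e-17 and 5.3e-16). As to Ifih1 at 1 h, it rose 6.07-fold in EPM and 3.29-fold in BMDM (log2 2.60 and 1.72, adjusted p 3.6e-14 and 1.88e-11). Ddx58 encodes RIG-I, which senses short viral RNA with triphosphate ends. EPM held Ddx58 at 8.35 and 8.10 untreated and 8.44 and 8.38 with KLA for 1 h, then 8.01 and 7.63 in 12 h DMSO and 11.90 and 11.75 with KLA for 12 h. BMDM held Ddx58 at 10.02 and 9.72 in 1 h DMSO and 9.92 and 9.75 with KLA for 1 h, then 9.63 and 9.43 and 12.35 and 12.23 at 12 h. For Ddx58, every 12 h KLA channel was above the controls of its time in EPM and BMDM, and the 1 h KLA values lay above both controls in EPM and overlapped the controls in BMDM. Ddx58 rose 16-fold in EPM (limma adjusted p 5.37e-15) and 6.79-fold in BMDM (log2 change 2.76, adjusted p 9.56e-13) at 12 h, with an SE of 0.13 on the log2 scale. For Ddx58 at 1 h, the log2 changes of 0.18 in EPM and -0.04 in BMDM did not pass (adjusted p 0.318 and 0.869).

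Zbp1 encodes a sensor of nucleic acid in the Z form that can start cell death. Zbp1 in EPM read 10.15 and 10.09 untreated, 10.28 and 10.45 after 1 h of KLA, 8.60 and 8.61 after 12 h of DMSO and 15.25 and 15.33 after 12 h of KLA. In BMDM the Zbp1 values were 11.29 and 11.17, 11.42 and 11.53, 10.65 and 10.61 and 14.70 and 15.00 for 1 h DMSO, 1 h KLA, 12 h DMSO and 12 h KLA. Zbp1 at 12 h of KLA lay above both controls in both macrophages, and the 1 h KLA values lay above both controls in both. Zbp1 rose 103-fold in EPM and 18.6-fold in BMDM at 12 h (log2 6.69 and 4.22, SE 0.11, adjusted p 3.31e-19 and 2.46e-16). As to Zbp1 at 1 h, the log2 changes of 0.25 in EPM and 0.25 in BMDM did not pass (adjusted p 0.0994 and 0.107). Eif2ak2 encodes PKR, a kinase that halts translation once double-stranded RNA activates it. EPM held Eif2ak2 at 9.34 and 9.16 untreated and 9.19 and 9.04 with KLA for 1 h, then 8.83 and 8.65 in 12 h DMSO and 12.16 and 12.09 with KLA for 12 h. BMDM held Eif2ak2 at 10.87 and 10.72 in 1 h DMSO and 10.39 and 10.23 with KLA for 1 h, then 10.32 and 10.16 and 12.71 and 12.52 at 12 h. For Eif2ak2, every 12 h KLA channel was above the controls of its time in EPM and BMDM, and the 1 h KLA values overlapped the controls in EPM and lay below both controls in BMDM. Eif2ak2 rose 10.5-fold in EPM and 5.21-fold in BMDM at 12 h (log2 3.39 and 2.38, SE 0.09, adjusted p 6.35e-16 and 9.51e-14). For Eif2ak2 at 1 h, it fell by 0.48 on the log2 scale in BMDM (adjusted p 0.000691), and the log2 change of -0.13 in EPM did not pass (adjusted p 0.325). Adar encodes an enzyme that edits adenosine to inosine in double-stranded RNA. Adar in EPM read 9.76 and 9.80 untreated, 9.88 and 9.78 after 1 h of KLA, 9.56 and 9.42 after 12 h of DMSO and 12.02 and 11.97 after 12 h of KLA. In BMDM the Adar values were 10.54 and 10.51, 10.37 and 10.50, 10.66 and 10.62 and 12.16 and 12.08 for 1 h DMSO, 1 h KLA, 12 h DMSO and 12 h KLA. Adar at 12 h of KLA lay above both controls in both macrophages, and the 1 h KLA values overlapped the controls in EPM and lay below both controls in BMDM. Adar rose 5.68-fold in EPM and 2.79-fold in BMDM at 12 h (log2 2.51 and 1.48, SE 0.08, adjusted p 4.31e-15 and 7.11e-12). As to Adar at 1 h, the log2 changes of 0.05 in EPM and -0.09 in BMDM did not pass (adjusted p 0.704 and 0.434). Stat2 encodes the signal carrier of ISGF3. EPM held Stat2 at 10.47 and 10.38 untreated and 9.94 and 10.09 with KLA for 1 h, then 9.93 and 10.06 in 12 h DMSO and 13.57 and 13.68 with KLA for 12 h. BMDM held Stat2 at 11.93 and 11.89 in 1 h DMSO and 11.49 and 11.79 with KLA for 1 h, then 11.70 and 11.78 and 14.37 and 14.54 at 12 h. For Stat2, every 12 h KLA channel was above the controls of its time in EPM and BMDM, and the 1 h KLA values lay below both controls in both. Stat2 rose 12.3-fold in EPM and 6.57-fold in BMDM at 12 h (log2 3.63 and 2.71, SE 0.10, adjusted p 5.63e-16 and 3.26e-14). For Stat2 at 1 h, it fell by 0.41 on the log2 scale in EPM (adjusted p 0.0038), and the log2 change of -0.27 in BMDM did not pass (adjusted p 0.0525).

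IFIT proteins bind viral RNA and keep it from being translated. Ifit1 had the largest 1 h change of the set in both macrophages. Ifit1 in EPM read 7.89 and 7.71 untreated, 12.03 and 12.10 after 1 h of KLA, 6.58 and 6.77 after 12 h of DMSO and 14.05 and 14.21 after 12 h of KLA. In BMDM the Ifit1 values were 9.79 and 9.56, 13.55 and 13.45, 9.78 and 9.33 and 14.54 and 14.56 for 1 h DMSO, 1 h KLA, 12 h DMSO and 12 h KLA. Ifit1 at 12 h of KLA lay above both controls in both macrophages, and the 1 h KLA values lay above both controls in both. Ifit1 rose 176-fold in EPM and 31.8-fold in BMDM at 12 h (log2 7.46 and 4.99, SE 0.12, adjusted p 1.6e-19 and 5.06e-17). As to Ifit1 at 1 h, it rose 19.2-fold in EPM and 14.1-fold in BMDM (log2 4.27 and 3.82, adjusted p 2e-15 and 1.29e-14). Ifit3 had the largest 12 h change of the set in EPM. EPM held Ifit3 at 9.58 and 9.27 untreated and 10.84 and 10.79 with KLA for 1 h, then 7.50 and 7.54 in 12 h DMSO and 16.46 and 16.26 with KLA for 12 h. BMDM held Ifit3 at 12.52 and 12.27 in 1 h DMSO and 13.78 and 13.82 with KLA for 1 h, then 12.02 and 11.78 and 16.64 and 16.47 at 12 h. For Ifit3, every 12 h KLA channel was above the controls of its time in EPM and BMDM, and the 1 h KLA values lay above both controls in both. Ifit3 rose 458-fold in EPM and 25.2-fold in BMDM at 12 h (log2 8.84 and 4.66, SE 0.10, adjusted p 4.34e-21 and 3.16e-17). For Ifit3 at 1 h, it rose 2.62-fold in EPM and 2.66-fold in BMDM (log2 1.39 and 1.41, adjusted p 7.8e-09 and 6.19e-09). Ifit2 rose 162-fold in EPM and 45.7-fold in BMDM at 12 h (log2 7.34 and 5.51, SE 0.11, adjusted p 1.44e-19 and 1.01e-17). As to Ifit2 at 1 h, it rose 2.3-fold in EPM and 3.37-fold in BMDM (log2 1.20 and 1.75, adjusted p 1.54e-07 and 8.38e-10).

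OAS enzymes make oligoadenylates that switch on RNase L, which cuts RNA. Oas1a is one of several close copies of Oas1 in the mouse, so its probe may also read related transcripts. Oas1a in EPM read 12.71 and 12.49 untreated, 12.53 and 12.30 after 1 h of KLA, 11.88 and 11.70 after 12 h of DMSO and 15.23 and 14.98 after 12 h of KLA. In BMDM the Oas1a values were 13.77 and 13.40, 13.20 and 13.06, 13.00 and 12.89 and 14.96 and 14.90 for 1 h DMSO, 1 h KLA, 12 h DMSO and 12 h KLA. Oas1a at 12 h of KLA lay above both controls in both macrophages, and the 1 h KLA values overlapped the controls in EPM and lay below both controls in BMDM. Oas1a rose 9.95-fold in EPM and 3.95-fold in BMDM at 12 h (log2 3.31 and 1.98, SE 0.12, adjusted p 5.03e-14 and 6.83e-11). As to Oas1a at 1 h, it fell by 0.46 on the log2 scale in BMDM (adjusted p 0.00872), and the log2 change of -0.18 in EPM did not pass (adjusted p 0.307). Oas2 is a larger enzyme of the same kind. EPM held Oas2 at 9.88 and 9.70 untreated and 9.64 and 9.53 with KLA for 1 h, then 8.65 and 8.68 in 12 h DMSO and 12.76 and 12.66 with KLA for 12 h. BMDM held Oas2 at 11.67 and 11.45 in 1 h DMSO and 11.31 and 11.30 with KLA for 1 h, then 11.59 and 11.46 and 13.32 and 13.24 at 12 h. For Oas2, every 12 h KLA channel was above the controls of its time in EPM and BMDM, and the 1 h KLA values lay below both controls in both. Oas2 rose 16.5-fold in EPM and 3.37-fold in BMDM at 12 h (log2 4.04 and 1.75, SE 0.09, adjusted p 1.41e-17 and 2.56e-12). For Oas2 at 1 h, it fell by 0.25 on the log2 scale in BMDM (adjusted p 0.035), and the log2 change of -0.20 in EPM did not pass (adjusted p 0.0903). Oasl1 lacks that enzyme activity and holds back translation of Irf7. Oasl1 in EPM read 10.93 and 10.79 untreated, 13.81 and 13.60 after 1 h of KLA, 9.75 and 9.51 after 12 h of DMSO and 15.30 and 15.37 after 12 h of KLA. In BMDM the Oasl1 values were 10.88 and 10.54, 13.93 and 13.71, 10.38 and 10.04 and 15.88 and 15.67 for 1 h DMSO, 1 h KLA, 12 h DMSO and 12 h KLA. Oasl1 at 12 h of KLA lay above both controls in both macrophages, and the 1 h KLA values lay above both controls in both. Oasl1 rose 52.1-fold in EPM and 47.4-fold in BMDM at 12 h (log2 5.70 and 5.57, SE 0.12, adjusted p 1.47e-17 and 2.68e-17). As to Oasl1 at 1 h, it rose 7.2-fold in EPM and 8.62-fold in BMDM (log2 2.85 and 3.11, adjusted p 2.36e-12 and 6.12e-13).

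Oas3 rose 15.1-fold in EPM and 5.98-fold in BMDM at 12 h (log2 3.91 and 2.58, SE 0.07, adjusted p 2.52e-18 and 1.1e-15). For Oas3 at 1 h, the log2 changes of -0.18 in EPM and 0.07 in BMDM did not pass (adjusted p 0.0756 and 0.516). Oasl2 rose 16.7-fold in EPM and 3.44-fold in BMDM at 12 h (log2 4.06 and 1.78, SE 0.17, adjusted p 4.62e-13 and 4.47e-08). For Oasl2 at 1 h, the log2 changes of 0.11 in EPM and 0.15 in BMDM did not pass (adjusted p 0.715 and 0.58). Oas1b is truncated in common laboratory strains, and its transcript is what was measured. Oas1b rose 8.71-fold in EPM and 7.06-fold in BMDM at 12 h (log2 3.12 and 2.82, SE 0.06, adjusted p 8.54e-18 and 4.19e-17). For Oas1b at 1 h, it fell by 0.32 in EPM and by 0.19 in BMDM on the log2 scale (adjusted p 0.000821 and 0.037). Oas1g rose at least 4.31-fold in EPM and 3.13-fold in BMDM at 12 h (log2 2.11 and 1.65, SE 0.06, adjusted p 3.95e-16 and 1.25e-14). For Oas1g at 1 h, the log2 changes of 0.05 in EPM and -0.05 in BMDM did not pass (adjusted p 0.59 and 0.607). Oas1g was not well above background in 12 h DMSO EPM, so its EPM fold is a lower bound: the KLA mean was set against the higher of the control's own value and the lowest signal among probes well above background in each channel.

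MX proteins are dynamin-like GTPases that trap viral parts. C57BL/6 mice carry a defective allele of Mx1, whose transcript was still measured. EPM held Mx1 at 7.27 and 7.17 untreated and 7.27 and 7.38 with KLA for 1 h, then 6.36 and 6.42 in 12 h DMSO and 13.20 and 13.12 with KLA for 12 h. BMDM held Mx1 at 8.88 and 8.82 in 1 h DMSO and 9.56 and 9.67 with KLA for 1 h, then 8.90 and 8.79 and 13.93 and 14.08 at 12 h. For Mx1, every 12 h KLA channel was above the controls of its time in EPM and BMDM, and the 1 h KLA values lay at or above the higher control in EPM and lay above both controls in BMDM. Mx1 rose 109-fold in EPM and 35.8-fold in BMDM at 12 h (log2 6.77 and 5.16, SE 0.07, adjusted p 5.12e-22 and 1.92e-20). For Mx1 at 1 h, it rose 1.7-fold in BMDM (log2 0.76, adjusted p 6.78e-08), and the log2 change of 0.11 in EPM did not pass (adjusted p 0.251). Mx2 is its neighbour and close relative. Mx2 in EPM read 7.45 and 7.33 untreated, 9.71 and 9.79 after 1 h of KLA, 6.55 and 6.62 after 12 h of DMSO and 13.21 and 13.10 after 12 h of KLA. In BMDM the Mx2 values were 8.98 and 8.66, 12.20 and 12.19, 9.53 and 9.10 and 14.17 and 13.91 for 1 h DMSO, 1 h KLA, 12 h DMSO and 12 h KLA. Mx2 at 12 h of KLA lay above both controls in both macrophages, and the 1 h KLA values lay above both controls in both. Mx2 rose 95.2-fold in EPM and 26.4-fold in BMDM at 12 h (log2 6.57 and 4.72, SE 0.12, adjusted p 1.59e-18 and 2.02e-16). As to Mx2 at 1 h, it rose 5.13-fold in EPM and 10.4-fold in BMDM (log2 2.36 and 3.38, adjusted p 3.18e-11 and 1.49e-13).

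The ISG15 system marks proteins with a ubiquitin-like tag and takes it off again. Isg15 encodes the tag. EPM held Isg15 at 9.61 and 9.64 untreated and 13.63 and 13.34 with KLA for 1 h, then 8.36 and 8.72 in 12 h DMSO and 16.27 and 16.19 with KLA for 12 h. BMDM held Isg15 at 11.58 and 11.62 in 1 h DMSO and 13.76 and 13.78 with KLA for 1 h, then 11.18 and 11.00 and 16.01 (Cy3, mean of both 16.01) at 12 h. For Isg15, every 12 h KLA channel was above the controls of its time in EPM and BMDM, and the 1 h KLA values lay above both controls in both. Isg15 rose 207-fold in EPM and 30.1-fold in BMDM at 12 h (log2 7.69 and 4.91, SE 0.11, adjusted p 4.57e-20 and 2.95e-17). For Isg15 at 1 h, it rose 14.5-fold in EPM and 4.48-fold in BMDM (log2 3.86 and 2.16, adjusted p 3.83e-15 and 2.39e-11). Usp18 encodes the protease that removes it, which also dampens signalling from the interferon receptor. Usp18 in EPM read 10.17 and 10.19 untreated, 10.26 and 10.36 after 1 h of KLA, 8.99 and 9.24 after 12 h of DMSO and 15.50 and 15.53 after 12 h of KLA. In BMDM the Usp18 values were 11.76 and 11.62, 11.76 and 11.88, 11.37 and 11.16 and 15.88 and 15.99 for 1 h DMSO, 1 h KLA, 12 h DMSO and 12 h KLA. Usp18 at 12 h of KLA lay above both controls in both macrophages, and the 1 h KLA values lay above both controls in EPM and lay at or above the higher control in BMDM. Usp18 rose 84.4-fold in EPM and 25.4-fold in BMDM at 12 h (log2 6.40 and 4.67, SE 0.10, adjusted p 1.86e-19 and 2.09e-17). As to Usp18 at 1 h, the log2 changes of 0.13 in EPM and 0.13 in BMDM did not pass (adjusted p 0.385 and 0.369). The array annotation (mm8) places the Isg15 probe on chromosome 17, whereas RefSeq (GRCm38.p6) places the gene on chromosome 4, and the name is that of the array. Whether the probe reads Isg15 was not tested, which bears on every value given for Isg15.

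**Figure D3:**
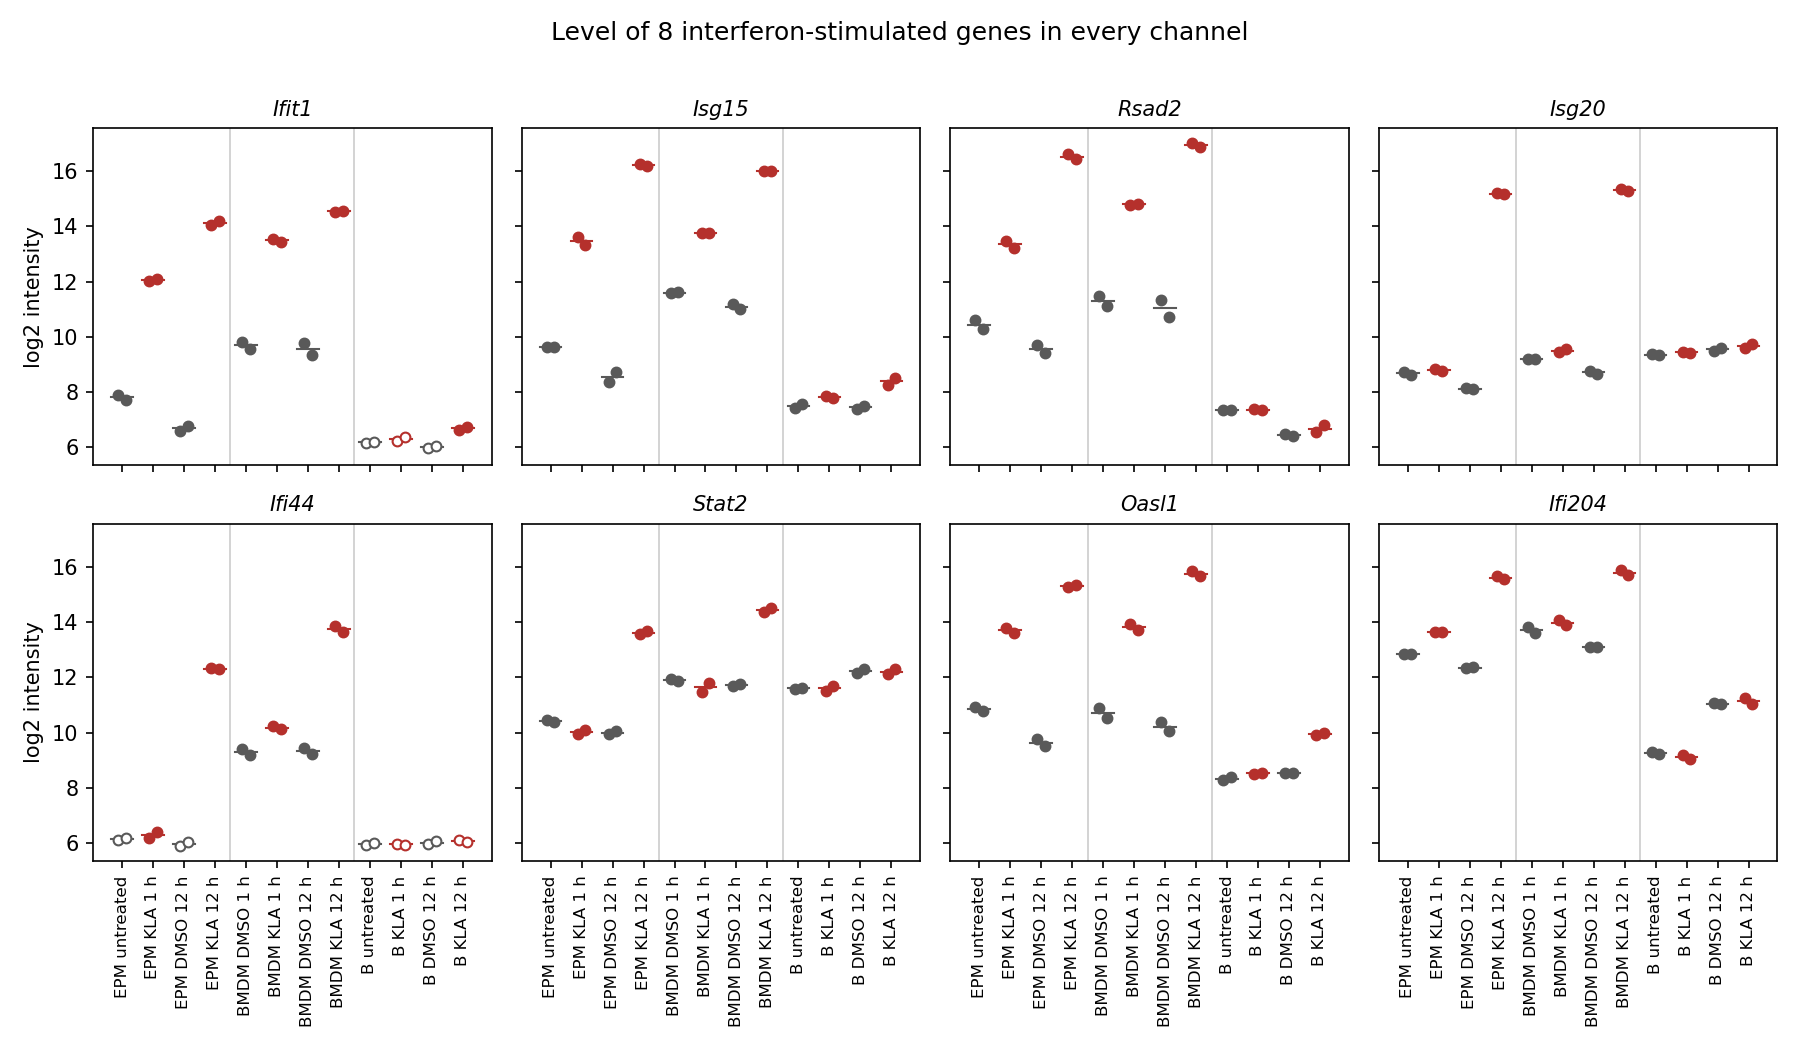
Log2 intensity of 8 of the genes in the 12 groups, with a point for each channel (Cy5 left, Cy3 right), a line for the mean, red for KLA and grey for controls. Open points mark groups where fewer than 2 channels were well above background. Isg20 in EPM stays between 8.08 and 8.83 in every group except 12 h KLA, where it reaches 15.20, while Ifit1 is already at 12.03 after 1 h of KLA.

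Effectors at membranes restrict viruses as they enter or leave. Rsad2 encodes viperin. EPM held Rsad2 at 10.61 and 10.28 untreated and 13.48 and 13.23 with KLA for 1 h, then 9.69 and 9.42 in 12 h DMSO and 16.63 and 16.44 with KLA for 12 h. BMDM held Rsad2 at 11.46 and 11.11 in 1 h DMSO and 14.77 and 14.83 with KLA for 1 h, then 11.33 and 10.73 and 17.02 and 16.90 at 12 h. For Rsad2, every 12 h KLA channel was above the controls of its time in EPM and BMDM, and the 1 h KLA values lay above both controls in both. Rsad2 rose 127-fold in EPM and 60.9-fold in BMDM at 12 h (log2 6.98 and 5.93, SE 0.16, adjusted p 3.93e-17 and 4.28e-16). For Rsad2 at 1 h, it rose 7.53-fold in EPM and 11.4-fold in BMDM (log2 2.91 and 3.52, adjusted p 9.02e-11 and 5.14e-12). Bst2 encodes tetherin, which holds budding virions on the cell. Bst2 in EPM read 13.97 and 13.99 untreated, 13.69 and 13.78 after 1 h of KLA, 13.21 and 13.34 after 12 h of DMSO and 16.49 and 16.55 after 12 h of KLA. In BMDM the Bst2 values were 15.76 and 15.59, 15.58 and 15.46, 15.43 and 15.38 and 16.71 and 16.39 for 1 h DMSO, 1 h KLA, 12 h DMSO and 12 h KLA. Bst2 at 12 h of KLA lay above both controls in both macrophages, and the 1 h KLA values lay below both controls in both. Bst2 rose 9.48-fold in EPM and 2.21-fold in BMDM at 12 h (log2 3.24 and 1.15, SE 0.09, adjusted p 1.5e-15 and 4.34e-09). As to Bst2 at 1 h, the log2 changes of -0.24 in EPM and -0.15 in BMDM did not pass (adjusted p 0.0633 and 0.261). Ifitm3 blocks fusion of viruses with endosomes. EPM held Ifitm3 at 14.04 and 13.98 untreated and 13.74 and 13.74 with KLA for 1 h, then 12.85 and 12.93 in 12 h DMSO and 15.86 and 15.94 with KLA for 12 h. BMDM held Ifitm3 at 14.45 and 14.40 in 1 h DMSO and 14.37 and 14.27 with KLA for 1 h, then 13.78 and 13.75 and 15.42 and 15.62 at 12 h. For Ifitm3, every 12 h KLA channel was above the controls of its time in EPM and BMDM, and the 1 h KLA values lay below both controls in both. Ifitm3 rose 8.02-fold in EPM and 3.37-fold in BMDM at 12 h (log2 3.00 and 1.75, SE 0.09, adjusted p 1.25e-15 and 2.67e-12). For Ifitm3 at 1 h, it fell by 0.27 on the log2 scale in EPM (adjusted p 0.0245), and the log2 change of -0.11 in BMDM did not pass (adjusted p 0.414).

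Isg20 encodes an exonuclease that degrades RNA. Isg20 in EPM read 8.72 and 8.61 untreated, 8.83 and 8.75 after 1 h of KLA, 8.12 and 8.08 after 12 h of DMSO and 15.20 and 15.17 after 12 h of KLA. In BMDM the Isg20 values were 9.19 and 9.20, 9.44 and 9.54, 8.74 and 8.66 and 15.36 and 15.28 for 1 h DMSO, 1 h KLA, 12 h DMSO and 12 h KLA. Isg20 at 12 h of KLA lay above both controls in both macrophages, and the 1 h KLA values lay above both controls in both. Isg20 rose 136-fold in EPM and 98.2-fold in BMDM at 12 h (log2 7.08 and 6.62, SE 0.06, adjusted p 1.59e-22 and 9.44e-22). As to Isg20 at 1 h, it rose 1.22-fold in BMDM (log2 0.29, adjusted p 0.00187), and the log2 change of 0.12 in EPM did not pass (adjusted p 0.178).

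The p200 genes Ifi203, Ifi204 and Ifi205 lie on chromosome 1 and encode PYHIN proteins, some of which sense DNA or act on transcription. As close relatives they may share probe targets, so their values are uncertain one from another. EPM held Ifi203 at 10.07 and 10.02 untreated and 11.53 and 11.34 with KLA for 1 h, then 9.36 and 9.30 in 12 h DMSO and 13.06 and 13.02 with KLA for 12 h. BMDM held Ifi203 at 10.99 and 10.75 in 1 h DMSO and 11.85 and 11.83 with KLA for 1 h, then 10.74 and 10.57 and 13.18 and 13.23 at 12 h. For Ifi203, every 12 h KLA channel was above the controls of its time in EPM and BMDM, and the 1 h KLA values lay above both controls in both. Ifi203 rose 13.1-fold in EPM and 5.83-fold in BMDM at 12 h (log2 3.71 and 2.54, SE 0.09, adjusted p 5.52e-17 and 1.25e-14). For Ifi203 at 1 h, it rose 2.62-fold in EPM and 1.96-fold in BMDM (log2 1.39 and 0.97, adjusted p 6e-10 and 8.73e-08). Ifi204 is known for a part in sensing DNA. Ifi204 in EPM read 12.86 and 12.85 untreated, 13.65 and 13.64 after 1 h of KLA, 12.33 and 12.37 after 12 h of DMSO and 15.67 and 15.58 after 12 h of KLA. In BMDM the Ifi204 values were 13.85 and 13.62, 14.07 and 13.89, 13.10 and 13.09 and 15.89 and 15.71 for 1 h DMSO, 1 h KLA, 12 h DMSO and 12 h KLA. Ifi204 at 12 h of KLA lay above both controls in both macrophages, and the 1 h KLA values lay above both controls in both. Ifi204 rose 9.66-fold in EPM and 6.5-fold in BMDM at 12 h (log2 3.27 and 2.70, SE 0.09, adjusted p 5.34e-16 and 7.59e-15). As to Ifi204 at 1 h, it rose 1.73-fold in EPM (log2 0.79, adjusted p 1.75e-06), and the log2 change of 0.24 in BMDM did not pass (adjusted p 0.0503). Ifi205 is another gene of that cluster. EPM held Ifi205 at 7.23 and 7.32 untreated and 10.36 and 10.22 with KLA for 1 h, then 7.04 and 6.74 in 12 h DMSO and 13.52 and 13.53 with KLA for 12 h. BMDM held Ifi205 at 6.54 and 6.51 in 1 h DMSO and 9.26 and 9.05 with KLA for 1 h, then 6.45 and 6.25 and 13.37 and 13.35 at 12 h. For Ifi205, every 12 h KLA channel was above the controls of its time in EPM and BMDM, and the 1 h KLA values lay above both controls in both. Ifi205 rose 99.1-fold in EPM and 129-fold in BMDM at 12 h (log2 6.63 and 7.01, SE 0.10, adjusted p 6.19e-20 and 4.53e-20). For Ifi205 at 1 h, it rose 8.07-fold in EPM and 6.2-fold in BMDM (log2 3.01 and 2.63, adjusted p 2.51e-14 and 2.1e-13).

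Ifi44 was bright in BMDM before KLA and dim in EPM. Ifi44 in EPM read 6.09 and 6.17 untreated, 6.17 and 6.39 after 1 h of KLA, 5.89 and 6.03 after 12 h of DMSO and 12.35 and 12.29 after 12 h of KLA. In BMDM the Ifi44 values were 9.39 and 9.17, 10.23 and 10.14, 9.45 and 9.21 and 13.88 and 13.65 for 1 h DMSO, 1 h KLA, 12 h DMSO and 12 h KLA. Ifi44 at 12 h of KLA lay above both controls in both macrophages, and the 1 h KLA values lay at or above the higher control in EPM and lay above both controls in BMDM. Ifi44 was well above background in 1 of the 2 channels of untreated EPM and not well above background in 12 h DMSO EPM. Ifi44 rose at least 80.7-fold in EPM and 21.6-fold in BMDM at 12 h (log2 6.36 and 4.43, SE 0.10, adjusted p 1.53e-19 and 2.86e-17). As to Ifi44 at 1 h, it rose 1.87-fold in BMDM (log2 0.91, adjusted p 1.11e-06), and the log2 change of 0.15 in EPM did not pass (adjusted p 0.29). Ifi47 encodes a GTPase of the IRG family. EPM held Ifi47 at 8.95 and 8.79 untreated and 9.04 and 8.87 with KLA for 1 h, then 8.39 and 8.31 in 12 h DMSO and 13.42 and 13.37 with KLA for 12 h. BMDM held Ifi47 at 11.02 and 10.75 in 1 h DMSO and 11.16 and 10.86 with KLA for 1 h, then 10.95 and 10.67 and 13.94 and 13.81 at 12 h. For Ifi47, every 12 h KLA channel was above the controls of its time in EPM and BMDM, and the 1 h KLA values overlapped the controls in both. Ifi47 rose 33.1-fold in EPM and 8.32-fold in BMDM at 12 h (log2 5.05 and 3.06, SE 0.11, adjusted p 2.77e-17 and 3.74e-14). For Ifi47 at 1 h, the log2 changes of 0.09 in EPM and 0.13 in BMDM did not pass (adjusted p 0.627 and 0.455). Tor3a encodes a torsin, an ATPase of the endoplasmic reticulum. Tor3a in EPM read 12.19 and 12.10 untreated, 11.72 and 11.66 after 1 h of KLA, 12.19 and 12.09 after 12 h of DMSO and 15.22 and 15.10 after 12 h of KLA. In BMDM the Tor3a values were 13.19 and 13.00, 12.76 and 12.70, 13.13 and 12.93 and 15.49 and 15.20 for 1 h DMSO, 1 h KLA, 12 h DMSO and 12 h KLA. Tor3a at 12 h of KLA lay above both controls in both macrophages, and the 1 h KLA values lay below both controls in both. Tor3a rose 8.13-fold in EPM and 4.98-fold in BMDM at 12 h (log2 3.02 and 2.32, SE 0.10, adjusted p 8.45e-15 and 3.3e-13). As to Tor3a at 1 h, it fell by 0.45 in EPM and by 0.36 in BMDM on the log2 scale (adjusted p 0.00197 and 0.00999). Ifi35 encodes an interferon-induced partner of Nmi. Ifi35 rose 11.9-fold in EPM and 5.66-fold in BMDM at 12 h (log2 3.58 and 2.50, SE 0.12, adjusted p 6.3e-15 and 9.29e-13). For Ifi35 at 1 h, the log2 changes of -0.03 in EPM and -0.01 in BMDM did not pass (adjusted p 0.89 and 0.978).

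TRIM proteins are mostly ubiquitin ligases. Trim21 is a cytosolic receptor for antibody bound to viruses. EPM held Trim21 at 8.64 and 8.45 untreated and 8.16 and 8.14 with KLA for 1 h, then 8.32 and 8.55 in 12 h DMSO and 11.39 and 11.48 with KLA for 12 h. BMDM held Trim21 at 9.74 and 9.65 in 1 h DMSO and 9.87 and 9.84 with KLA for 1 h, then 10.10 and 9.97 and 12.43 and 12.45 at 12 h. For Trim21, every 12 h KLA channel was above the controls of its time in EPM and BMDM, and the 1 h KLA values lay below both controls in EPM and lay above both controls in BMDM. Trim21 rose 8-fold in EPM and 5.3-fold in BMDM at 12 h (log2 3.00 and 2.40, SE 0.08, adjusted p 1.6e-16 and 3.76e-15). For Trim21 at 1 h, it fell by 0.40 on the log2 scale in EPM (adjusted p 0.00053), and the log2 change of 0.16 in BMDM did not pass (adjusted p 0.129). Trim30, named Trim30a in RefSeq, is known as a brake on TLR signalling. Trim30 in EPM read 10.22 and 10.09 untreated, 10.23 and 10.25 after 1 h of KLA, 9.33 and 9.55 after 12 h of DMSO and 12.78 and 12.86 after 12 h of KLA. In BMDM the Trim30 values were 11.69 and 11.60, 11.51 and 11.58, 11.31 and 11.28 and 13.08 and 13.02 for 1 h DMSO, 1 h KLA, 12 h DMSO and 12 h KLA. Trim30 at 12 h of KLA lay above both controls in both macrophages, and the 1 h KLA values lay above both controls in EPM and lay below both controls in BMDM. Trim30 rose 10.4-fold in EPM and 3.38-fold in BMDM at 12 h (log2 3.38 and 1.76, SE 0.09, adjusted p 3.57e-16 and 4.26e-12). As to Trim30 at 1 h, the log2 changes of 0.09 in EPM and -0.10 in BMDM did not pass (adjusted p 0.53 and 0.451). Trim25 attaches ubiquitin to RIG-I. EPM held Trim25 at 13.38 and 13.37 untreated and 13.39 and 13.32 with KLA for 1 h, then 12.58 and 12.57 in 12 h DMSO and 13.71 and 13.56 with KLA for 12 h. BMDM held Trim25 at 13.26 and 13.10 in 1 h DMSO and 13.10 and 13.01 with KLA for 1 h, then 13.04 and 12.94 and 13.69 and 13.81 at 12 h. For Trim25, every 12 h KLA channel was above the controls of its time in EPM and BMDM, and the 1 h KLA values overlapped the controls in both. Trim25 rose 2.09-fold in EPM and 1.69-fold in BMDM at 12 h (log2 1.06 and 0.76, SE 0.07, adjusted p 3.7e-10 and 2.64e-08). For Trim25 at 1 h, the log2 changes of -0.02 in EPM and -0.12 in BMDM did not pass (adjusted p 0.884 and 0.238).

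The PARP family is named for enzymes that attach ADP-ribose to proteins. Parp14 is the larger of the pair. Parp14 in EPM read 11.98 and 11.92 untreated, 12.95 and 12.84 after 1 h of KLA, 11.44 and 11.47 after 12 h of DMSO and 15.06 and 15.16 after 12 h of KLA. In BMDM the Parp14 values were 13.58 and 13.45, 13.89 and 13.91, 13.42 and 13.21 and 15.14 and 15.01 for 1 h DMSO, 1 h KLA, 12 h DMSO and 12 h KLA. Parp14 at 12 h of KLA lay above both controls in both macrophages, and the 1 h KLA values lay above both controls in both. Parp14 rose 12.6-fold in EPM and 3.4-fold in BMDM at 12 h (log2 3.66 and 1.77, SE 0.08, adjusted p 9.62e-18 and 3.59e-13). As to Parp14 at 1 h, it rose 1.93-fold in EPM and 1.31-fold in BMDM (log2 0.95 and 0.38, adjusted p 1.89e-08 and 0.00082). Parp9 rose 8.89-fold in EPM and 3.71-fold in BMDM at 12 h (log2 3.15 and 1.89, SE 0.07, adjusted p 1.85e-17 and 2.9e-14). For Parp9 at 1 h, it rose 1.3-fold in EPM and 1.24-fold in BMDM (log2 0.38 and 0.31, adjusted p 0.000359 and 0.00244). Nuclear bodies gather around Pml. Pml encodes their scaffold. EPM held Pml at 10.04 and 9.93 untreated and 9.55 and 9.55 with KLA for 1 h, then 9.81 and 9.81 in 12 h DMSO and 11.71 and 11.89 with KLA for 12 h. BMDM held Pml at 10.34 and 10.37 in 1 h DMSO and 10.14 and 10.23 with KLA for 1 h, then 10.57 and 10.51 and 12.46 and 12.49 at 12 h. For Pml, every 12 h KLA channel was above the controls of its time in EPM and BMDM, and the 1 h KLA values lay below both controls in both. Pml rose 3.96-fold in EPM and 3.84-fold in BMDM at 12 h (log2 1.99 and 1.94, SE 0.06, adjusted p 7.23e-15 and 8.23e-15). For Pml at 1 h, it fell by 0.43 on the log2 scale in EPM (adjusted p 4.63e-05), and the log2 change of -0.17 in BMDM did not pass (adjusted p 0.0611). Daxx encodes a histone chaperone found in them. Daxx in EPM read 12.44 and 12.42 untreated, 12.25 and 12.31 after 1 h of KLA, 12.14 and 12.25 after 12 h of DMSO and 15.25 and 15.39 after 12 h of KLA. In BMDM the Daxx values were 12.57 and 12.73, 12.66 and 12.85, 12.69 and 12.79 and 15.48 and 15.61 for 1 h DMSO, 1 h KLA, 12 h DMSO and 12 h KLA. Daxx at 12 h of KLA lay above both controls in both macrophages, and the 1 h KLA values lay below both controls in EPM and overlapped the controls in BMDM. Daxx rose 8.7-fold in EPM and 7-fold in BMDM at 12 h (log2 3.12 and 2.81, SE 0.08, adjusted p 7.95e-17 and 3.78e-16). As to Daxx at 1 h, the log2 changes of -0.15 in EPM and 0.11 in BMDM did not pass (adjusted p 0.147 and 0.335).

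Sp100 encodes another component of the nuclear bodies. EPM held Sp100 at 9.85 and 9.85 untreated and 9.75 and 9.88 with KLA for 1 h, then 9.04 and 9.29 in 12 h DMSO and 10.97 and 11.16 with KLA for 12 h. BMDM held Sp100 at 10.68 and 10.56 in 1 h DMSO and 10.78 and 10.59 with KLA for 1 h, then 10.32 and 10.25 and 11.68 and 11.72 at 12 h. For Sp100, every 12 h KLA channel was above the controls of its time in EPM and BMDM, and the 1 h KLA values overlapped the controls in both. Sp100 rose 3.73-fold in EPM and 2.67-fold in BMDM at 12 h (log2 1.90 and 1.42, SE 0.09, adjusted p 9.45e-13 and 4.74e-11). For Sp100 at 1 h, the log2 changes of -0.03 in EPM and 0.07 in BMDM did not pass (adjusted p 0.841 and 0.589).

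The test of the difference itself asked whether KLA changed a member by a different amount in EPM and BMDM. For 1 h the control was untreated in EPM and DMSO in BMDM, so vehicle and cell type cannot be told apart in that difference. At 1 h, 5 members changed more upward in EPM and 5 more upward in BMDM, where 4.08% and 5.51% of all genes did, so the share of members was above that of all genes in both directions. Isg15 (1.70, SE 0.15, limma adjusted p 4.26e-07), Ifih1 (0.88) and Parp14 (0.57) changed more in EPM. Mx2 (-1.02, adjusted p 0.000518), Ifi44 (-0.76) and Mx1 (-0.65) changed more in BMDM. Since Ifi44 was well above background in 1 of the 2 channels of untreated EPM, the size of its difference is uncertain. Ifi204 passed in EPM alone and its difference of 0.55 also passed (adjusted p 0.00755), while that of Isg20, -0.17, did not (adjusted p 0.296). With the dye as a replicate block 17 members differed at 1 h in place of 10 (all genes 7.70% and 10.2%), and with array means 0 did.

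At 12 h, 36 of 39 members rose more in EPM and 1 rose more in BMDM, where 23.2% and 24.6% of all genes differed that way. The median difference was 1.24 against -0.03 over all genes. A larger change here is not a higher level with KLA. By group means with no test, EPM minus BMDM had a median of -1.50 in the 12 h controls and -0.23 after 12 h of KLA. With KLA for 12 h, 30 of 39 members stood lower in EPM. Ifit3 (4.18, SE 0.15, adjusted p 2.43e-13), Isg15 (2.78) and Zbp1 (2.47) differed most. Ifi205 was the member that rose more in BMDM (-0.38, adjusted p 0.0284), a call lost without any 1 of 6 of its 8 channels, with -0.23 without the Cy5 channel of 12 h DMSO in EPM, -0.28 without the Cy3 channel of 12 h DMSO in BMDM, and -0.37 to -0.39 without any 1 of the 4 channels of 12 h KLA. Oasl1 (0.14) and Pml (0.05) did not pass. With array means as samples 1 member differed (all genes 0.617%), and Trim25 turned from 0.30 to -0.01.

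Set against the change at 1 h, the 12 h change was greater for 39 of 39 members in EPM and for 39 in BMDM, and smaller for 0 in each, also at an unadjusted p under 0.05 in limma. Over all genes it was greater for 19.4% and smaller for 24.3% in EPM, and 24.5% and 29.9% in BMDM. The median of this difference was 3.50 in EPM and 2.46 in BMDM. Ifit3 (7.45, SE 0.15, adjusted p 2.43e-17) and Isg20 (6.96) stood furthest in EPM, and Isg20 (6.33, SE 0.09, adjusted p 4.55e-19) and Usp18 (4.54) in BMDM. With array means as samples 29 members differed in EPM and 20 in BMDM (all genes 7.44% and 11.5%).

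The controls themselves moved. In EPM, 33 of 39 members were lower and 0 higher after 12 h of DMSO than untreated, where 8.32% of all genes were lower and 10.8% higher, and limma gave 0 members higher at an unadjusted p under 0.05. The median was -0.70 against 0.00 over all genes, and Ifit3 (-1.90), Zbp1 (-1.51) and Oasl1 (-1.23) fell furthest of the members. In BMDM, 20 were lower and 3 higher after 12 h than after 1 h of DMSO, where 9.98% and 13.2% of all genes were, with a median of -0.27. Mx2 (0.50), Trim21 (0.34) and Pml (0.18) were the members that rose there. The BMDM count of 23 was 14 without the Cy3 channel of 12 h DMSO and also without the Cy5 channel of 1 h DMSO. In EPM the 2 controls differ in vehicle as well as in time, so these cannot be told apart, and the 12 h KLA change is taken against the lower of the 2 control levels.

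With the labels of the scanner files, B cells changed little by comparison, and in bulk samples such as these fewer cells of a type and less RNA per cell cannot be told apart. Of the 39, 1 member rose and 0 fell at 1 h, where 2.73% of all genes rose and 2.46% fell, and limma gave 3 higher and 1 lower at an unadjusted p under 0.05 (all genes 9.98% and 9.18%). Mx1 in B cells read 6.27 and 6.16 untreated, 6.55 and 6.57 with KLA for 1 h, 6.33 and 6.31 with DMSO for 12 h and 6.39 and 6.36 with KLA for 12 h. The 1 h KLA values of Mx1 lay above the untreated ones, which were not well above background, so that it rose at least 1.27-fold (log2 change 0.35, adjusted p 0.00405). That call was lost without the Cy3 channel of the untreated cells (0.29, adjusted p 0.0588), and Adar passed without that channel (0.32). With the dye as a replicate block 2 members rose and 1 fell (all genes 7.18% and 6.68%). With array means as samples 0 rose, where 0.0807% of all genes were called. In that fit 0 were higher at an unadjusted p under 0.05 in limma, where 1.35% of all genes were.

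After Mx1, the highest 1 h differences in B cells were those of Isg15 and Zbp1 and the lowest those of Parp14 and Eif2ak2. Zbp1 in B cells read 9.10 and 9.13 untreated, 9.27 and 9.39 with KLA for 1 h, 9.16 and 9.37 with DMSO for 12 h and 9.17 and 9.55 with KLA for 12 h. Parp14 in B cells read 12.11 and 12.12 untreated, 11.83 and 12.02 with KLA for 1 h, 12.51 and 12.51 with DMSO for 12 h and 12.64 and 12.65 with KLA for 12 h. Eif2ak2 in B cells read 7.74 and 7.62 untreated, 7.57 and 7.43 with KLA for 1 h, 7.88 and 7.81 with DMSO for 12 h and 8.02 and 7.99 with KLA for 12 h. The 1 h KLA channels of Zbp1 lay above the untreated ones and those of Parp14 and Eif2ak2 below, by little. None passed, with log2 changes of 0.33 for Isg15 (limma adjusted p 0.0969), 0.21 for Zbp1 (0.303), -0.20 for Parp14 (0.159) and -0.19 for Eif2ak2 (0.296).

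At 12 h in B cells, 8 members rose and 0 fell, where 2.81% of all genes rose and 2.48% fell, and 2 members were lower at an unadjusted p under 0.05 in limma, with 8.74% of all genes. The members that rose were Oasl1, Isg15, Ifit1, Oas2, Ifit3, Usp18, Mx2 and Ifih1, and the median over all 39 was 0.12 against -0.01 over all genes. Oasl1 in B cells read 8.27 and 8.37 untreated, 8.50 and 8.54 with KLA for 1 h, 8.54 and 8.52 with DMSO for 12 h and 9.91 and 9.99 with KLA for 12 h. Isg15 in B cells read 7.41 and 7.55 untreated, 7.83 and 7.78 with KLA for 1 h, 7.38 and 7.47 with DMSO for 12 h and 8.25 and 8.51 with KLA for 12 h. The 12 h KLA values of both genes lie above all their other B cell values. Oasl1 rose 2.67-fold (log2 1.42, SE 0.12, adjusted p 1.96e-07) and Isg15 1.94-fold (log2 0.96, adjusted p 8.5e-06). Ifit1 in B cells read 6.13 and 6.19 untreated, 6.21 and 6.35 with KLA for 1 h, 5.95 and 6.02 with DMSO for 12 h and 6.62 and 6.71 with KLA for 12 h. Ifit1 was not well above background in the 12 h control and rose at least 1.55-fold (adjusted p 0.000886).

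With array means as samples 0 of the 8 passed in limma, where 0.00576% of all genes were called. In that fit 1 of 39 was higher at an unadjusted p under 0.05, where 1.05% of all genes were. With the dye as a replicate block 2 further members passed, and the other 37 stayed on the same side of the threshold. The rest of the 8 that rose in B cells at 12 h in the main fit were Oas2 (0.59), Ifit3 (0.55), Usp18 (0.49), Mx2 (0.48) and Ifih1 (0.36). By their other probes Oas2 gave 0.42, Ifit3 0.18 and Ifih1 -0.10. Those probes were not well above background in every channel. Averaging probes lost 1 of the 8 calls. Usp18 in B cells read 6.73 and 6.66 untreated, 6.81 and 6.71 with KLA for 1 h, 6.93 and 7.01 with DMSO for 12 h and 7.29 and 7.62 with KLA for 12 h. Ifih1 in B cells read 6.66 and 6.67 untreated, 6.58 and 6.58 with KLA for 1 h, 6.69 and 6.74 with DMSO for 12 h and 6.92 and 7.23 with KLA for 12 h. In both genes the 12 h KLA channels lay above the 12 h control channels, with the Cy3 channel the further. Without the Cy3 channel of 12 h KLA the count of 8 fell to 5, since Usp18 (0.32), Mx2 (0.42) and Ifih1 (0.20) lost their calls, and Ifitm3 (-0.33) became lower. Mx2 also lost its call without the Cy5 channel of 12 h KLA (0.54) or the Cy3 channel of 12 h DMSO (0.38), Usp18 without the Cy5 channel of 12 h DMSO (0.45), and Ifih1 without either channel of 12 h DMSO (0.33 and 0.38). Ifitm3 in B cells read 9.97 and 9.87 untreated, 9.95 and 9.98 with KLA for 1 h, 9.61 and 9.83 with DMSO for 12 h and 9.38 and 9.66 with KLA for 12 h. Ddx58 in B cells read 8.87 and 8.59 untreated, 8.73 and 8.70 with KLA for 1 h, 9.13 and 8.99 with DMSO for 12 h and 8.87 and 8.86 with KLA for 12 h. The 12 h KLA values of Ddx58 lay below those of 12 h DMSO and those of Ifitm3 overlapped them. Ifitm3 (-0.20, adjusted p 0.246) and Ddx58 (-0.20, adjusted p 0.485) stood lowest of the 39 and did not pass.

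With the 2 labels exchanged, the B cell counts were different, and the 1 h comparison then uses the arrays that the given labels call untreated and 12 h DMSO. At 1 h 20 members rose and 6 fell, where 25.0% of all genes rose and 22.4% fell, and at 12 h 25 rose and 4 fell, where 24.8% rose and 24.4% fell. Ifi204 (1.79 at 1 h and 2.04 at 12 h) rose furthest and Rsad2 (-0.94 and -0.69) fell furthest. The members' medians were 0.21 and 0.39. Under both sets of labels Ifit1, Oas2, Oasl1, Mx2, Isg15, Usp18 and Ifih1 rose at 12 h, 7 of the 8 above, with Oasl1 at 1.43 and Isg15 at 0.58 after the exchange, while Ifit3 (0.04, adjusted p 0.77) did not.

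Between the arrays labelled 12 h DMSO and untreated, 20 members were higher and 6 lower, where 25.0% of all genes were higher and 22.4% lower, the same test as that of 1 h after the exchange, and exchanging the labels left 1 higher and 0 lower (all genes 2.73% and 2.46%), with 3 and 1 at an unadjusted p under 0.05 in limma. Ifi204 in B cells read 9.30 and 9.22 untreated, 9.18 and 9.04 with KLA for 1 h, 11.08 and 11.02 with DMSO for 12 h and 11.27 and 11.03 with KLA for 12 h. Ifi204 read higher on both arrays labelled 12 h than on the other pair. On the same arrays the mean of the 4 erythroid markers was 9.62 untreated, 9.66 with KLA for 1 h, 8.76 with DMSO for 12 h and 8.53 with KLA for 12 h, and that of the 5 plasmacytoid dendritic cell markers 7.41, 7.44, 8.23 and 8.30, led by Pacsin1. In the same order the means were 7.18, 7.21, 7.69 and 7.60 for the macrophage markers, led by Ctsd, 13.42, 13.42, 13.90 and 13.80 for the B cell markers, led by Cd79b, 7.21, 7.22, 7.56 and 7.51 for the T cell markers, led by Lck, and 6.24, 6.79, 6.53 and 6.42 for the NK cell markers. Their part in the members' values was not tested.

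Of 45 other listed symbols of the pathway, among them alternative names of the same gene for Irf9 and Irf8, 40 were on the array. In EPM 12 rose and 2 fell at 1 h and 24 rose and 5 fell at 12 h, in BMDM 17 rose and 4 fell, then 25 and 8, and in B cells 2 and 4 rose at 1 h and 12 h and 0 fell at either. Over all genes the shares that rose and fell were 9.39% and 19.7% at 1 h and 19.6% and 34.3% at 12 h in EPM, 11.0% and 17.6%, then 28.6% and 36.3% in BMDM, and 2.73% and 2.46%, then 2.81% and 2.48% in B cells. With the labels exchanged 12 rose and 13 fell in B cells at 1 h and 12 rose and 12 fell at 12 h (all genes 25.0% and 22.4%, then 24.8% and 24.4%). Ifnb1, the ligand interferon beta, in EPM read 5.99 and 6.05 untreated, 13.66 and 13.37 with KLA for 1 h, 6.13 and 6.12 with DMSO for 12 h and 7.47 and 7.21 with KLA for 12 h. In BMDM the Ifnb1 values were 6.23 and 6.12 in 1 h DMSO, 15.44 and 15.23 in 1 h KLA, 6.10 and 6.18 in 12 h DMSO and 10.53 and 10.39 in 12 h KLA. It was brightest at 1 h in both macrophages, and neither EPM control nor the early BMDM control was well above background. Ifnb1 rose at least 181-fold at 1 h and at least 2.32-fold at 12 h in EPM, and at least 575-fold and 20-fold in BMDM (limma adjusted p 3.43e-20, 3.8e-09, 3.65e-21 and 3.15e-17). In B cells Ifnb1 was not well above background in any group.

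Irf7, the transcription factor that amplifies interferon alpha, in EPM read 11.46 and 11.53 untreated, 11.13 and 11.35 with KLA for 1 h, 9.41 and 9.88 with DMSO for 12 h and 15.17 and 15.41 with KLA for 12 h. The Irf7 values of 12 h KLA lay above the controls and those of 1 h KLA just below the untreated ones. Irf7 rose by 5.64 in EPM and 4.08 in BMDM at 12 h, and Isgf3g, the array's name for Irf9, by 1.67 and 0.76. Isgf3g (-0.13 and 0.05) did not pass at 1 h. Irf1 rose at both times, by 2.49 and 3.73 in EPM and 2.74 and 2.31 in BMDM. Among inhibitors, Socs3 rose by 4.22 and 4.03 in EPM, and Socs1 by 1.07 and 3.70. Of 4 receptor genes 3 rose and 1 fell at 12 h in each macrophage. Over all genes 19.6% rose and 34.3% fell in EPM, and 28.6% and 36.3% in BMDM. Ifnar1 and Ifnar2 encode the receptor of type I interferon, and Ifngr1 and Ifngr2 that of interferon gamma, which is not type I. Ifnar1 rose by 0.44 in EPM and 0.43 in BMDM, and Ifngr1 fell by 1.24 and 1.68. Of 11 ligands on the array, with interferon gamma (Ifng) counted among them, 2 rose and 0 fell in EPM at 1 h, where 9.39% of all genes rose and 19.7% fell. In BMDM at 1 h 8 rose and 1 fell, where 11.0% and 17.6% of all genes did. By the test of the difference at 1 h, whose controls also differ in vehicle, 8 changed more upward in BMDM and 1 in EPM (all genes 5.51% and 4.08%).

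The 39 members had 66 probes, 19 members with a single probe and 20 with several, and each value above comes from the member's brightest probe. Probes of a member disagreed most for Ifi205, whose other probe was not well above background in any channel and gave 0.09 in place of 6.63 in EPM at 12 h. Ifi44 ranged from 2.83 to 6.36 in the same comparison, Ddx58 over a range of 2.42, Oas2 from 1.63 to 4.04 and Ifi203 from 1.31 to 3.71. At 1 h in EPM, Trim25 gave -0.02 by its brightest probe and 1.14 by the other, and the mean over its probes passed the threshold upward. At 12 h that other probe, well above background in all 24 channels, gave Trim25 2.38 in EPM and 2.71 in BMDM, so its place as the least changed member rests on the brightest probe. Parp14, at 0.95 in EPM and 0.38 in BMDM at 1 h, reached 2.35 and 2.07 by another probe, and Ifi204, at 0.24 in BMDM at 1 h, gave 0.75 and 0.74 by its other probes, and the mean over its probes passed upward.

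What the members share in sequence was read from RefSeq promoter windows (GRCm38.p6) of 250 bases before and 50 after each gene's start. Of 39 members 28 matched by symbol, with 37 windows, and Oas1b, Oas2, Mx1, Mx2, Usp18, Zbp1, Ifi204, Tor3a, Trim30, Parp9 and Parp14 did not. The interferon-stimulated response element, searched as GAAANNGAAA on both strands, lay in a window of 16 of the 28, 57.1%, and in 43.2% of their windows against 3.44% of all 32851 windows. The gamma-activated site TTCNNNGAA lay in 21.6% of the members' windows against 8.3% of all, the kappaB motif, searched by its usual consensus, in 18.9% against 8.46%, and the TATA box TATAAA in 13.5% against 13.6%. In 2 windows, those of Bst2 and Ifitm3, a response element overlapped a gamma-activated site. The element was found in 7 of 9 members that rose at 1 h in EPM and in 9 of the other 19, and for BMDM in 7 of 11 and 9 of 17.

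The stretches printed here surround the response element nearest the start in 4 members that rose by 1 h in both macrophages (Ifit1, Ifit3, Isg15 and Rsad2) and in 3 that rose at 12 h and not at 1 h (Oas3, Stat2 and Bst2), to show the letters these members share across timings. Each is 40 bases from RefSeq (GRCm38.p6), 5' to 3' on the gene's strand and upstream of the start, with every match to the element on either strand in capitals (the first capitals of Ifit1 are the end of a match that starts before the stretch): Ifit1 at chr19:34640789-34640828 on the plus strand, Ifit3 at chr19:34583392-34583431 on the plus strand, Isg15 at chr4:156200860-156200899 on the minus strand, Rsad2 at chr12:26456548-26456587 on the minus strand, Oas3 at chr5:120777710-120777749 on the minus strand, Stat2 at chr10:128270261-128270300 on the plus strand, Bst2 at chr8:71537572-71537611 on the minus strand. A match is a description of letters and not a bound site.
Ifit1: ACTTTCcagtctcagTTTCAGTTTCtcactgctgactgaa
Ifit3: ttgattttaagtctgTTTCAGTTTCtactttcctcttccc
Isg15: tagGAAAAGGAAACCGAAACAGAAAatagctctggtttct
Rsad2: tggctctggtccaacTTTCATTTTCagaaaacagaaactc
Oas3: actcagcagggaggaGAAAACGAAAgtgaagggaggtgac
Stat2: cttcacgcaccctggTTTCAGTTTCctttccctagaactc
Bst2: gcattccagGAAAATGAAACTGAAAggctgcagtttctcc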

How the data were processed

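The deposited intensity files are the authors' scanner output from Agilent Feature Extraction 9.5.3.1, and a table of normalized intensity values whose method they do not name. The 2 deposited copies of an array did not differ, so a channel's values come from the columns of its dye. Mean spot intensity was corrected with the median background by normexp (offset 50), control spots were dropped, dye bias was removed by loess inside each array, average intensities were brought to common quantiles across arrays, and log2 values were taken per channel. Outlier spots were set missing, spots of a probe were averaged, and a gene is its probe with the highest mean. A gene stayed in if, for some condition, neither channel of that probe fell short of well above background. The model was fitted with limma 3.58.1 in R 4.3.3, with a coefficient for each condition, leaving 12 residual degrees of freedom, and adjusted p is Benjamini-Hochberg over all 17353 genes.

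Conditions share the dye as a name for replicates. Cy5 minus Cy3 differences were correlated over genes in all 66 pairs of arrays (r 0.27 to 0.63), so a fit with the dye as a replicate block was made beside the main one, and genes are not independent replicates in this check. The fit was tried on simulated channels, in which arrays did not differ. The members and the marker and pathway lists were chosen with earlier results of these data known. Channel values are given for members of every family and for the largest and smallest changes of each comparison.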

Additional observations from a re-analysis of the deposited data

Results flagged for a closer look

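A difference between groups marked these results for a closer look, each by the test of the difference of 2 KLA changes in limma. Between EPM and BMDM, 10 members differed at 1 h and 37 at 12 h, where array means as samples left 0 and 1 and where 4.08% and 5.51% of all genes differed toward EPM and toward BMDM at 1 h and 23.2% and 24.6% at 12 h. At 1 h these were led by Isg15 (1.70), Ifih1 (0.88) and Parp14 (0.57) toward EPM and by Mx2 (-1.02), Ifi44 (-0.76) and Mx1 (-0.65) toward BMDM. The size of the Ifi44 difference is uncertain, as Ifi44 was dim in untreated EPM. The 1 h control was untreated in EPM and DMSO in BMDM, so vehicle and cell type cannot be told apart there. At 12 h they were led by Ifit3 (4.18), Isg15 (2.78) and Zbp1 (2.47) toward EPM, with Ifi205 (-0.38) toward BMDM. These are differences of changes: by group means with no test, 30 of 39 members stood lower in EPM after 12 h of KLA.

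Between the 12 h and the 1 h change, 39 members differed in EPM and 39 in BMDM, where array means left 29 and 20 and the 12 h change was greater and smaller for 19.4% and 24.3% of all genes in EPM and 24.5% and 29.9% in BMDM. Ifit3 (7.45) and Isg20 (6.96) stood furthest in EPM, and Isg20 (6.33) and Usp18 (4.54) in BMDM.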

How the results depend on the processing

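The 12 h rise of all 39 members in EPM and BMDM kept its direction and side of the threshold under every alternative that tested them except array means, which left 36 and 29. The count lower in BMDM at 1 h, 5, was 3 with an offset of 16, 3 with processed signals, 1 with the authors' values, 3 with each cell type fitted alone, 3 at a threshold of 0.01 and 3 after centring. It was 7 with loess alone. Over all genes the count lower moved as well, from 3053 in the main fit (17.6%) to 2856 with an offset of 16 and 3024 with processed signals. With the authors' values it was 1936, after centring 2566 and with loess alone 3720. The 10 members that differed between EPM and BMDM at 1 h were 6 with processed signals and 6 among genes well above background in all channels, a filter under which 0 rose in B cells at 1 h. Averaging probes gave 2 there, and a threshold of 0.01 gave 17 for the B cell controls in place of 26. The cause was not tested for any of these, beyond the stricter threshold and the smaller set of genes.

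With the dye as a replicate block, 12 members fell in EPM at 1 h, 2 rose and 1 fell in B cells at 1 h, and 17 differed between EPM and BMDM at 1 h. Array means, which have fewer samples and take the early and 12 h controls of a cell type as replicates, gave 4 higher and 0 lower in EPM at 1 h, 1 and 0 in BMDM, 0 higher in B cells at 1 h and 0 at 12 h, 0 and 1 different between EPM and BMDM at 1 h and 12 h, 20 between times in BMDM and 23 in basal level. Leaving out 1 channel gave 13 higher and 4 to 6 lower in EPM at 1 h, 15 to 16 and 2 to 4 in BMDM, 39 and 39 higher at 12 h, 1 and 5 to 7 higher in B cells, 8 to 10 and 34 to 37 different between EPM and BMDM, 36 to 38 in basal level, and 28 to 30, 14 to 23 and 19 to 21 between controls in EPM, BMDM and B cells.

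In B cells the authors' values gave 20 higher and 4 lower at 1 h (all genes 3988 and 3191), 24 and 3 at 12 h (all genes 4042 and 3542) and 0 different between controls, and exchanging the labels gave 20 and 6, 25 and 4, and 1. Of members called in the main fit or in the alternative, those whose log2 change turned direction in B cells at 1 h, with the authors' values and then with the exchange, were Oas1a 0.73 and 0.55, Oas1b 0.59 and 0.46, Ddx58 0.44 and 0.33, Eif2ak2 0.28 with a call in the authors' values alone, Rsad2 -1.04 and -0.94, Bst2 0.33 and 0.31, Ifi204 1.78 and 1.79, Ifi35 -0.34 and -0.36, Tor3a 0.48 and 0.53, Trim21 0.37 and 0.34, Trim30 0.96 and 1.00, Parp9 0.43 and 0.38, Parp14 0.37 and 0.39, Sp100 0.71 and 0.75, Daxx -0.21 with a call in the exchange alone. At 12 h they were Oas1b 0.59 and 0.56, Mx1 -0.18 with a call in the exchange alone, Stat2 0.58 and 0.60, Rsad2 -0.61 and -0.69, Bst2 0.33 and 0.30, Trim21 0.39 and 0.33, Pml 0.30 and 0.32, Sp100 0.78 and 0.81, Daxx -0.31 and -0.27, where Daxx had 0.00 to begin with. At 1 h Rsad2 likewise had 0.00 to begin with. Turns of members with no call in either fit are not listed. Among macrophage members so called, array means turned Oas1b to 0.02 and Ifitm3 to 0.29 in EPM and Oas1b to 0.08 in BMDM at 1 h, with Trim25 turned in the basal and 12 h differences between EPM and BMDM, and averaging probes turned Trim25 to 0.56 in EPM at 1 h. The cause was not tested.

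The share of all calls that were higher moved with scaling: in EPM at 1 h from 32.3% to 46.2% with the authors' values and 44.7% after centring, in EPM at 12 h from 36.3% to 46.4% with loess alone, in BMDM at 1 h from 38.4% to 50.9% with the authors' values, in BMDM at 12 h from 44.0% to 29.9% and in B cells at 1 h from 52.6% to 15.8% with loess alone. Among members it moved in BMDM at 1 h from 75.0% to 94.4%, and in B cells to 83.3% at 1 h and 88.9% at 12 h, with the authors' values. Over all genes the median change reached -0.11 in EPM at 12 h with processed signals and -0.14 in BMDM at 12 h with loess alone. Signal over background limits folds where a control is dim, as for Ifi44, Oas1g, Ifit1, Mx1 and Ifnb1. With 1 array per condition, differences between arrays are part of every change.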
